A study of Mus musculus with 12 samples.

Results

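The mitochondrial respiratory chain subunits encoded in the nucleus were followed in mouse blood neutrophils. They were taken by symbol: all protein-coding genes of the deposited table whose names begin with Ndufa, Ndufb, Ndufc, Ndufs, Ndufv, Sdh, Uqcr, Cox4 to Cox8 or Atp5, without the Ndufaf assembly factors and without pseudogenes. The rule took 65 of 9374 genes (0.693%), of which 8691 are protein-coding. Complex I has 25 of these members, complex II 5, complex III 6, complex IV 16 and complex V 13. Ndufa4 was counted with complex IV, where it is now placed. Sdhaf2, which attaches flavin to Sdha, meets the rule but is an assembly factor. RefSeq lists 92 genes that the rule takes, and the 27 without a row, such as Ndufs3, Ndufab1, Uqcrb, Atp5g2 and Atp5g3, were not analysed here. None of the 13 subunits encoded in mitochondrial DNA had a row, so they were not analysed here either.

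The study compared 4 groups of 3 libraries, all from blood neutrophils of female mice. WT-Saline and WT-LPS came from wild-type mice, and KO-Saline and KO-LPS from Hmgb1ΔMye mice, whose label names a myeloid deletion of Hmgb1, the gene of a chromatin protein that cells also release as an alarm signal. Lipopolysaccharide (LPS), a component of the outer membrane of Gram-negative bacteria, was given at 0.5 mg/kg and compared with saline at 16 h. The animals' age, the Cre line and whether a library stands for 1 mouse or a pool were not found in the labels, so p-values measure the spread between these libraries, which may be technical.

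The libraries held 399702 to 526757 reads each, recovered as whole numbers from the deposited log2 values. Hmgb1 was not lower under the KO label: it had 8, 17 and 12 reads with saline and 14, 15 and 34 with LPS in wild type, and 14, 10 and 25 with saline and 6, 30 and 16 with LPS in KO. Reads over the whole gene do not show whether the deleted part was present, and the groups are therefore called KO-labelled. The library KO-LPS replicate 1 stood apart from its group for strongly LPS-raised genes. It held 121 reads of the granule gene Ngp against 1619 and 1758 in the other KO-LPS libraries, and 10 of the lipase gene Lipg against 295 and 357. All 12 listed neutrophil markers had rows, with summed levels of 13065 to 17981 CPM (reads per library, brought to equal depth) in WT-Saline, 27564 to 29255 in WT-LPS, 18624 to 19428 in KO-Saline and 22246 to 30712 in KO-LPS.

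The respiratory chain moves electrons from NADH through complex I, or from succinate through complex II, to ubiquinone, then through complex III and cytochrome c to complex IV, which reduces oxygen. Complexes I, III and IV pump protons, and complex V, the ATP synthase, uses the proton gradient to make ATP. Mature neutrophils are known for few mitochondria and for making most of their ATP by glycolysis, while their mitochondrial membrane potential is kept and has been tied to survival and migration. Most subunits are encoded in the nucleus and imported, and the promoters of many are known to bind the factors NRF-1 and GABP.

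Among genes with a row, respiratory chain transcripts had few reads in these neutrophils. Of the genes the rule takes in RefSeq, 70.7% had a row, against 39.7% of all RefSeq protein-coding genes. The 65 members together held 7992 reads over the 12 libraries, 0.149% of all reads, and 529 to 869 reads in a single library. The median member had a mean of 6.08 reads per library against 11.3 for the median gene of the table, and 45 of 65 lay under that gene. No member was in the top 10% of genes by reads, and 2 were in the top 25%. A mean under 3 reads was found for 16 members, a mean under 10 for 42 and a mean of at least 30 for 4, and 35 members had reads in every library. Per length the order is different. Length here is that of all annotated exons of a gene merged, which can exceed the length of any 1 transcript. Atp5l, the lowest member per length, had 6443 bases by this measure. On the scale of CPM per kilobase of exon, the median level was 8.71 for the members and 5.87 for protein-coding genes of the table, and 41 members lay above the latter value.

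**Figure D1:**
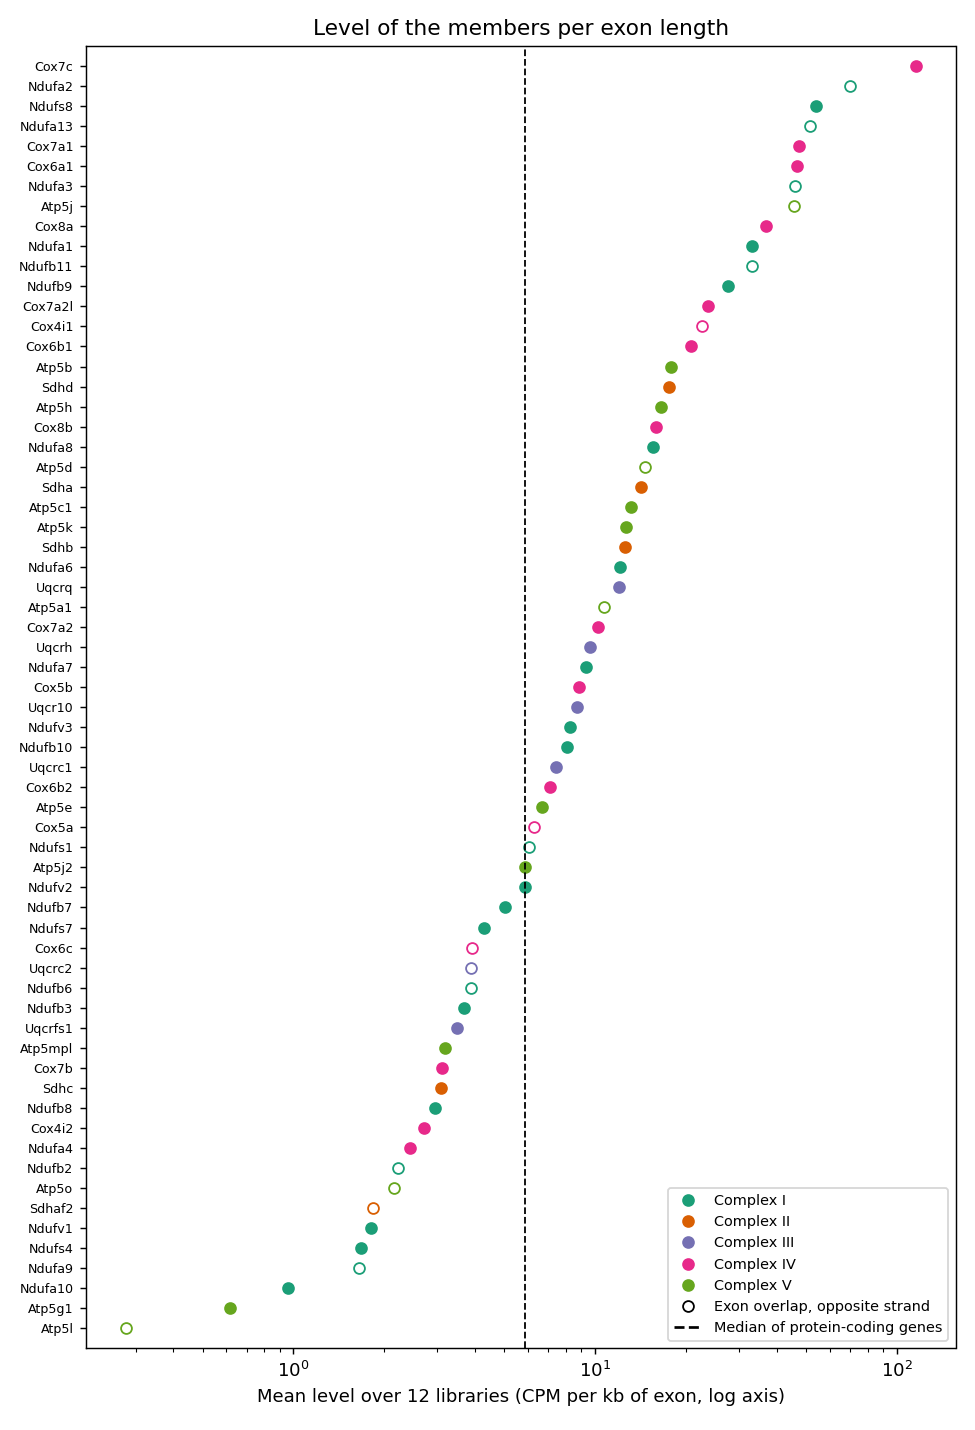
Mean level of the members, all but 1, over the 12 libraries in CPM per kilobase of exon on a log axis, coloured by complex; open points mark exons that overlap a gene on the opposite strand, and the dashed line is the protein-coding median of 5.87. Cox7c leads at 116 and Atp5l is lowest at 0.278.

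Cox7c, a small structural subunit of complex IV, and Atp5j, a peripheral stalk subunit of complex V, stood at the top of the module. Cox7c had a mean of 58.2 reads per library and the highest level per length, 116 CPM per kilobase. Atp5j had more reads, a mean of 63.3, but over a longer exon model its level was 45.6 CPM per kilobase. Atp5b, the catalytic beta subunit of complex V, followed with a mean of 34.5 reads, and Ndufs8, a core iron-sulfur subunit of complex I, with 31.0. The 3 members with the most reads held 23.4% of all member reads. Within complex I the next were Ndufa13, an accessory subunit, at 28.8 reads and Ndufs1, a core iron-sulfur subunit, at 22.2, while per length the accessory subunit Ndufa2 led at 69.8 CPM per kilobase. In complex II the order by reads was Sdha, the flavoprotein, at 26.4, Sdhb, the iron-sulfur subunit, at 12.8, and Sdhd, a membrane anchor, at 9.33. In complex III it was the core protein Uqcrc1 at 13.8, the small subunit Uqcrq at 9.75 and the hinge protein Uqcrh at 5.50. In complex V, Atp5a1, the alpha subunit, held 14.8. The lowest 2 members were Atp5l, a membrane subunit of complex V, with 10 reads in all libraries together and Cox4i2 with 11.

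Several complex IV subunits exist as tissue isoforms, and both kinds had reads here. For subunit 4, the ubiquitous Cox4i1 had 22.6 CPM per kilobase and the lung isoform Cox4i2 2.71, with no read in 8 of 12 libraries. For subunit 8, the ubiquitous Cox8a had 36.7 CPM per kilobase and the heart and muscle isoform Cox8b 15.9. For subunit 6b the ubiquitous Cox6b1 had 20.7 CPM per kilobase and the testis isoform Cox6b2 7.10. Subunit 7a went the other way: the heart and muscle isoform Cox7a1 had 47.4 CPM per kilobase, the ubiquitous Cox7a2 10.2, and the family member Cox7a2l, which takes part in supercomplex assembly, 23.7. Cox7a1 had 2, 8 and 23 reads with saline and 13, 19 and 14 with LPS in wild type, and 3, 13 and 12 with saline and 4, 14 and 15 with LPS in KO. In the same groups Cox7a2 had 11, 5 and 4, then 2, 5 and 10, then 1, 6 and 2, then 2, 3 and 2 reads. Per length Cox7a1 was above Cox7a2 in 11 of the 12 libraries, the exception being WT-Saline replicate 1. Cox6a1, the one isoform of subunit 6a with a row, had 46.5 CPM per kilobase. Ndufa4, with 18 reads in all libraries together, and Atp5g1, the one c-ring gene with a row, with 16, were among the sparsest members. Near-identical copies can share reads in such families: RefSeq names 16 pseudogenes under the symbols of the rule, and how reads with several matches were counted is not given in the sources used here.

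Exons of 19 of 65 members (29.2%) overlap a gene on the opposite strand, against 36.8% of all genes of the table. Whether the counting used strand is not given in the sources used here, so reads from such pairs cannot be told apart. For 14 of the 19 the partner has its own row, and 10 partners had more reads than the member. Among the leading members this touches Atp5j, which overlaps Gabpa (760 against 314 reads in all), Ndufa13, which overlaps Tssk6 (345 against 171), Ndufs1, which overlaps Ino80dos (267 against 699), and Ndufa2, which overlaps Tmco6 (211 against 364). Ndufs8, Cox7c, Atp5b and Sdha have no such overlap. Among members named below it also touches Atp5d, which overlaps Cbarp (152 against 1911 reads), and Sdhaf2, which overlaps Cpsf7 (72 against 216). Cox4i1 overlaps Emc8 (183 against 38), and Ndufa9 overlaps 1700018A23Rik, which has no row.

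LPS was compared with saline in each genotype and averaged over both, and the averaged comparison shares all its libraries with the other 2. Calls were made in limma where the p-value, adjusted by Benjamini-Hochberg over all 9374 genes, was under 0.05. In wild type, 1 of 65 members was called, Ndufs8, while 11.7% of all genes were. In the KO-labelled groups limma called 0 members, against 3.35% of all genes. There 3 members had an unadjusted p under 0.05, against 17.2% of all genes, and limma with voom weights called 1, Ndufa7, against 3.38% of all genes. Averaged over genotypes 5 members were called, against 16.9% of all genes: Ndufs8, Ndufs4, Ndufa9 and Uqcrfs1 were higher under LPS (all genes called higher, 9.86%) and Ndufa7 was lower (all genes called lower, 7.03%). The called share of members was thus below that of the table in each of the 3 comparisons. The same held among genes with a mean of at least 10 reads: 1 of 23 members against 20.3% of genes in wild type, 0 of 23 against 4.73% in KO, and 1 of 23 against 28.1% averaged. No member lay in the top 10% of genes by reads, so this filter does not even out depth. The lower shares are therefore not read as a property of the members.

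Ndufs8 carried the change with the most reads. Its protein holds iron-sulfur clusters on the path of electrons to ubiquinone, and its gene lies on chromosome 19 at 3908863 to 3912774 of mm10, on the minus strand. The gene had 8, 6 and 20 reads in WT-Saline and 42, 57 and 53 in WT-LPS, and the groups did not overlap. Its level was 23.1 ± 12.7 CPM (SD, n = 3) with saline and 106 ± 12.2 CPM with LPS. The log2 fold change was 2.27 ± 0.51 (SE), with a 95% interval of 1.23 to 3.32 and an adjusted p of 0.00305 in limma. In KO it had 14, 14 and 27 reads with saline and 12, 75 and 44 with LPS. There the groups overlapped because of KO-LPS replicate 1, the library that also stood apart for Ngp and Lipg. The log2 fold change in KO was 0.96 ± 0.51 (adjusted p 0.341), and it differed from that in wild type by -1.31 ± 0.72 (interaction, adjusted p 0.867). Averaged over genotypes Ndufs8 rose by 1.62 ± 0.36 (adjusted p 0.00189). Without KO-LPS replicate 1, Ndufs8 and Ndufa7 were both called in KO, as were 11.5% of all genes. In a fit without a mean-variance trend the wild-type call was lost (adjusted p 0.0671) and the averaged one was kept. The nearest neighbours on the same strand, Aldh3b1 and Tcirg1, lie 716 and 1729 bases away.

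Ndufa7, an accessory subunit of the complex I arm that reaches into the matrix, was the member that fell. Its gene lies on chromosome 17 at 33824572 to 33838317 of mm10, on the plus strand. It had 12, 14 and 7 reads with saline and 1, 5 and 9 with LPS in wild type, and 12, 18 and 8 with saline and 4, 0 and 1 with LPS in KO. The wild-type groups overlapped in WT-LPS replicate 3, and every KO-LPS library lay under every KO-Saline library. Mean levels went from 23.9 ± 9.40 to 9.88 ± 7.20 CPM (SD, n = 3) in wild type and were 4.27 ± 5.64 CPM in KO-LPS. Averaged over genotypes Ndufa7 fell by 2.22 ± 0.65 on the log2 scale (adjusted p 0.0168). The difference was -1.38 ± 0.92 in wild type (adjusted p 0.389) and -3.05 ± 0.92 in KO (adjusted p 0.0629). The averaged call was lost without WT-LPS replicate 1 (adjusted p 0.0550) or KO-LPS replicate 2 (0.0513). Ndufa7 starts 9 bases from Rps28 on the opposite strand, which held 16 reads in all.

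The other 3 called members rested on few reads. No gene of the table had under 8 reads in all, and the saline reads of each of these 3 stayed under that number. Their rows thus depend on the LPS libraries, where they are high, and their calls are not independent of that. Ndufs4, an accessory subunit of the NADH-oxidizing module, had 3, 0 and 0 reads with saline and 5, 4 and 4 with LPS in wild type, and 0 in every saline library and 2, 4 and 2 with LPS in KO. Its LPS and saline libraries did not overlap in either genotype. Over 6 libraries a side it had 21 reads with LPS and 3 with saline, a ratio of 6.99 after scaling for library size, with an exact 95% counting interval of 2.09 to 36.6 (adjusted p 0.0208). Uqcrfs1, the Rieske iron-sulfur protein of complex III, also had 21 against 3 reads. It had none with saline and 2, 4 and 2 with LPS in wild type, and 0, 1 and 2 with saline and 7, 5 and 1 with LPS in KO, so the wild-type groups did not overlap and the KO groups did (adjusted p 0.0457). Ndufa9, an accessory subunit next to the ubiquinone site, had no read in any of 6 saline libraries, 2, 3 and 3 in WT-LPS, and 1, 9 and 0 in KO-LPS. Against a floor of 3 reads per library it was at least 1.02-fold higher with LPS (adjusted p 0.0380), and 9 of its 18 reads came from KO-LPS replicate 2. Leaving out 1 library ended the Ndufs4 call in 3 of 12 cases (WT-Saline replicates 2 and 3 and KO-LPS replicate 2, adjusted p 0.0585 to 0.0591). It ended that of Ndufa9 in 10 cases, all but KO-LPS replicates 1 and 3 (highest adjusted p 0.148), and that of Uqcrfs1 in 10, all but KO-Saline replicate 3 and KO-LPS replicate 3 (highest 0.112). Without KO-LPS replicate 2, Ndufs8 was the 1 member still called, and the share of all genes called was 12.4%.

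**Figure D2:**
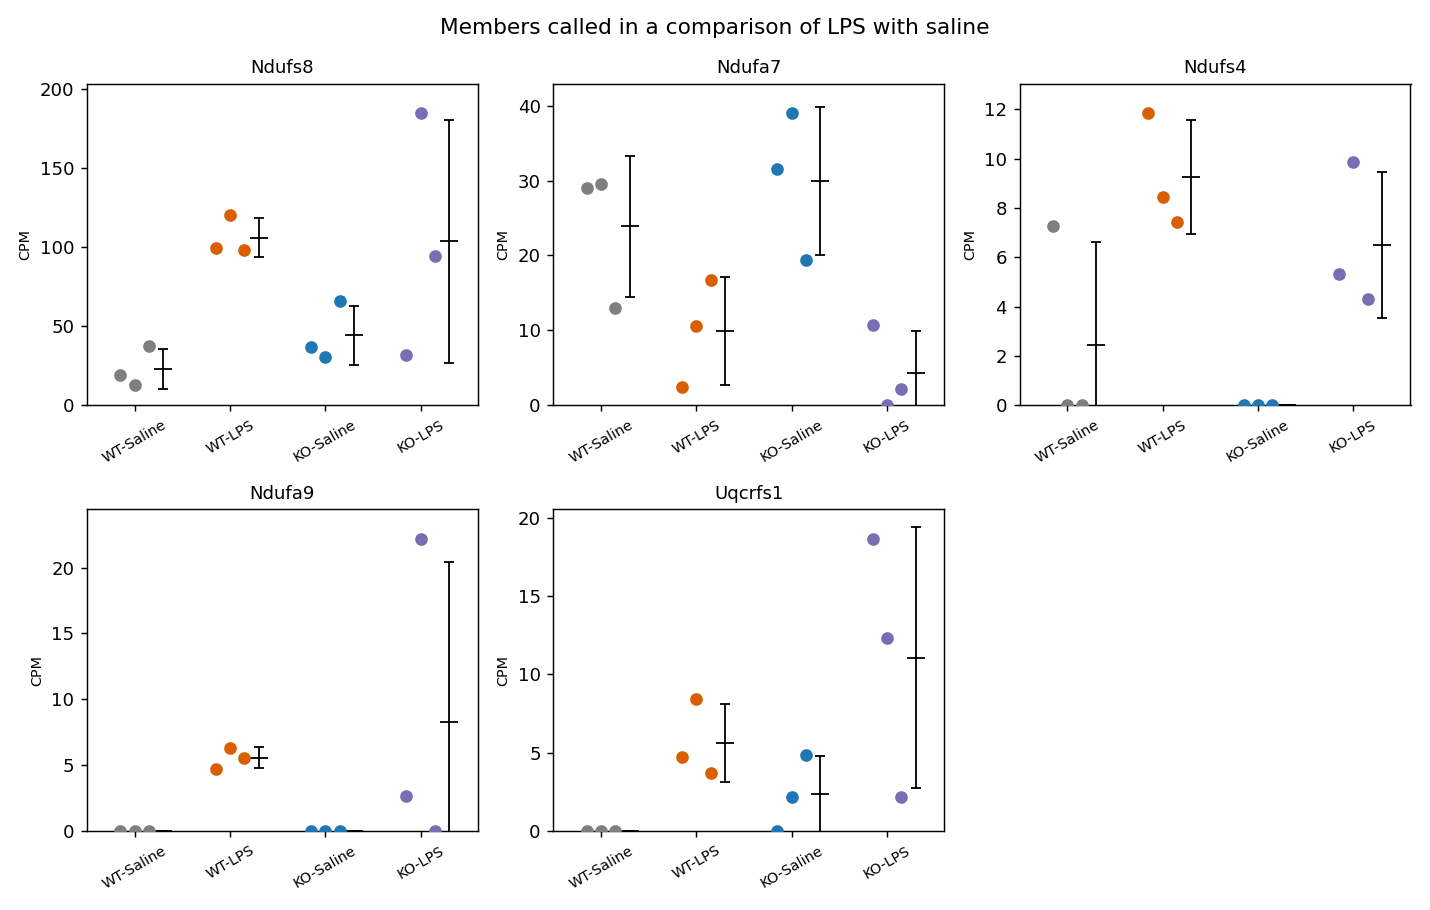
Level in CPM of the 5 members called in a comparison of LPS with saline, by group; points are libraries in replicate order and bars are the mean ± SD of 3 libraries. Ndufs8 sits at 12.7 to 37.3 CPM in WT-Saline and 98.5 to 120 in WT-LPS, while the levels of Ndufs4, Ndufa9 and Uqcrfs1 rest on 0 to 9 reads per library.

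The sequence just upstream of the transcription start is shown for the gene with the most reads behind its rise, Ndufs8, for the gene that fell, Ndufa7, and for Cox6a1, the member with the most reads among those with an NRF-1 motif. Each is the 250 bases before the RefSeq start on GRCm38.p6, 5′ to 3′ on the gene's strand, and capitals mark any of the motifs that were searched. They cover chr19:3912775-3913024 (minus strand), chr17:33824322-33824571 (plus strand) and chr5:115348959-115349208 (minus strand).
Ndufs8: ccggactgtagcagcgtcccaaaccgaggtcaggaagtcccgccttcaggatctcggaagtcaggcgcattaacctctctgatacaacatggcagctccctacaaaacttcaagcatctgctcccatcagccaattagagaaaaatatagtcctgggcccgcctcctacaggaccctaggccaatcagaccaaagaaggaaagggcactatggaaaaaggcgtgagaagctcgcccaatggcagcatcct
Ndufa7: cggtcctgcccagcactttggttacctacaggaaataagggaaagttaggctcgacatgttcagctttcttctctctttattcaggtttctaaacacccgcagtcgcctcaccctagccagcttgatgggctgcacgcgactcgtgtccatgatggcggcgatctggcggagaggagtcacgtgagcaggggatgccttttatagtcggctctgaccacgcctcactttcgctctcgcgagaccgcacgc
Cox6a1: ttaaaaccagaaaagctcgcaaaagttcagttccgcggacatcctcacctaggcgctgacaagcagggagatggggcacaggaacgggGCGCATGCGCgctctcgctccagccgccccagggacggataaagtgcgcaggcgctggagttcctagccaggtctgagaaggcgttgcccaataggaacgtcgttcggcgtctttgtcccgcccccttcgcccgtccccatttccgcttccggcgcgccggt

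Motifs were searched on both strands in 57 promoters of the 53 members with an entry and in all 32851 promoters of the RefSeq table. The NRF-1 motif GCATGCGC was in 10.5% of member promoters (Atp5k, Atp5l, Cox6a1, Ndufa6, Ndufa8 and Sdhb) and in 2.26% of all, or 2.93% of those of protein-coding genes, which all members are. In Cox6a1 it lies on both strands, the matches overlap, and the capitals cover both. The ETS core CCGGAAGT, the letters GABP is known to bind, was in 3.51% of member promoters (Atp5h and Uqcrh), between the 2.88% of all and the 3.79% of protein-coding promoters. The cAMP-response element TGACGTCA was in the promoters of Ndufa10, Ndufb2 and Uqcrfs1, 5.26% against 1.55% of all and 1.92% of protein-coding promoters. These are letter matches in one window, the GC content of the windows differed (median 56.0% for members and 52.4% for all), and none of the 3 motifs was in the windows of Ndufs8, Ndufa7, Ndufs4 or Ndufa9. None of the 6 members with the NRF-1 motif was called in any comparison. The largest share of all genes called was 16.9%, averaged over genotypes, so none of 6 is not read as a result about the motif.

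Most other members did not separate from their spread. Overlap of groups was judged on CPM, here and throughout. In wild type the LPS and saline libraries of 8 members did not overlap with LPS higher, against 16.5% of all genes. Beside Ndufs8, Ndufs4, Ndufa9 and Uqcrfs1 these were Ndufa3, Ndufa4, Ndufa10 and Ndufb3. LPS was lower without overlap for 3 members, Ndufa13, Atp5d and Cox7a2l, against 14.1% of all genes. In KO these counts were 4, against 9.67% of all genes (Ndufs1, Ndufs4, Ndufa6 and Sdhaf2), and 2, against 6.89% (Ndufa7 and Ndufb11). Some of these separated only after scaling for library size. In reads, Atp5d met at 16 in wild type and Sdhaf2 at 4 in KO. Cox7a2l overlapped in wild type, with 26, 16 and 18 reads with saline and 4, 12 and 17 with LPS. Ndufa13 had 44, 48 and 44 reads with saline and 10, 26 and 35 with LPS in wild type, and 30, 16 and 34 with saline and 16, 23 and 19 with LPS in KO. The wild-type groups did not overlap and the KO groups did, and the difference was -1.11 ± 0.43 in wild type (adjusted p 0.0996) and -0.75 ± 0.30 averaged (adjusted p 0.0926, and 0.0365 without KO-Saline replicate 2). Its opposite-strand neighbour Tssk6 held 0 to 37 reads per library. Sdhd had 16, 19 and 9, then 10, 3 and 1 reads in wild type, and 10, 16 and 10, then 12, 4 and 2 in KO. The averaged difference was -1.58 ± 0.59 (adjusted p 0.0616), and it passed the threshold without WT-LPS replicate 1 (0.0247), without KO-LPS replicate 1 (0.0148) and with voom weights (0.0391). Ndufb11, an accessory subunit of the membrane arm, had 21, 16 and 24 reads in KO with saline and 4, 9 and 5 with LPS, with no overlap, but 13, 20 and 9 against 21, 2 and 13 in wild type (in KO, -1.73 ± 0.70, adjusted p 0.190). Averaged over genotypes it was called lower without WT-LPS replicate 1. Exons of Ndufb11 overlap Rbm10 on the opposite strand (157 against 419 reads in all).

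Among members higher with LPS but not called, Ndufa4 had no read in WT-Saline and 3, 4 and 4 in WT-LPS. In KO it had 0, 0 and 6 with saline and 1, 0 and 0 with LPS. Against the floor its wild-type level was at least 1.20-fold higher (adjusted p 0.0739, 0.0499 without KO-Saline replicate 3, and 0.0495 with voom weights), and in KO 1 library with saline held the highest value. Sdhaf2 had 4, 2 and 1 reads in KO with saline and 4, 10 and 13 with LPS (1.76 ± 0.91, adjusted p 0.322), with 2, 8 and 11 and then 2, 12 and 3 in wild type. Ndufa6, an accessory subunit of the matrix arm, had 7, 9 and 3 reads in KO with saline and 15, 13 and 20 with LPS (1.38 ± 0.70, adjusted p 0.317), but 13, 5 and 10 and then 10, 4 and 4 in wild type. Ndufv1, the flavin-binding subunit that oxidizes NADH, had 8, 1 and 12 reads in WT-Saline and 0, 0 and 3 in WT-LPS, a read ratio of 0.142, 95% by counting 0.0271 to 0.475 (adjusted p 0.169).

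The members with the most reads bound the LPS difference most tightly. Atp5j had 58, 79 and 64 reads with saline and 65, 62 and 70 with LPS in wild type, and 63, 68 and 49 with saline and 50, 73 and 59 with LPS in KO. All groups overlapped, and the averaged log2 difference had a 95% interval of -0.41 to 0.40. Cox7c had 28, 53 and 66, then 98, 74 and 60 reads in wild type, and 39, 42 and 60, then 40, 65 and 74 in KO. Its averaged difference was 0.51 ± 0.23, with an interval of 0.04 to 0.99 and an adjusted p of 0.134, and it was called without KO-LPS replicate 1. Atp5b had 36, 31 and 64, then 32, 27 and 48 in wild type. In KO it had 33, 34 and 34, then 11, 12 and 52, and its averaged difference was -0.53 ± 0.30 (adjusted p 0.250). Without KO-LPS replicate 3, the library with 52 reads, Atp5b was called lower averaged over genotypes. Sdha had 28, 25 and 34, then 12, 29 and 31 in wild type, and 22, 43 and 21, then 20, 20 and 32 in KO, with an averaged difference of -0.29 ± 0.29 (adjusted p 0.548). Ndufs1 had an averaged difference of 0.62 ± 0.34 (adjusted p 0.226), Uqcrc1 0.80 ± 0.48 (adjusted p 0.282) and Cox4i1 0.01 ± 0.42 (adjusted p 0.993). For the median member the 95% interval of an LPS difference in 1 genotype reached 1.85 log2 units, or 3.61-fold, to either side. Among the 23 members with a mean of at least 10 reads it reached 1.17 units. Averaged over genotypes, the interval lay wholly within a 2-fold change either way for 7 of 65 members.

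As a group the members gave a direction that depended on the summary used. The median log2 difference with LPS was 0.23 in wild type, 0.25 in KO and 0.34 averaged, against 0.06, 0.09 and 0.09 for all genes. Values above 0 were found for 37, 39 and 40 of 65 members, against 52.4%, 54.7% and 54.3% of all genes. For genes with no read in a group the fitted value depends on the 0.5 reads added before the log, and with those members set at their bound the medians were 0.00, 0.11 and 0.21. Among the 23 members with a mean of at least 10 reads they were -0.04, 0.08 and -0.0048, against 0.02, 0.02 and 0.01 for all genes under the same filter. The level of the median member within a library went the other way, from 3.92 ± 0.23 log2 CPM (SD, n = 3) with saline to 3.70 ± 0.39 with LPS in wild type and from 4.16 ± 0.18 to 3.96 ± 0.22 in KO. The mean over members went from 3.40 ± 0.08 to 3.74 ± 0.16 log2 CPM in wild type and from 3.58 ± 0.13 to 3.78 ± 0.17 in KO. Members without a read numbered 12 to 13 of 65 per library in WT-Saline (18.5 to 20%) and 3 to 5 in WT-LPS (4.62 to 7.69%). In KO they numbered 8 to 17 with saline (12.3 to 26.2%) and 7 to 10 with LPS (10.8 to 15.4%). The share of all genes without a read was 9.08 to 12.4% in WT-Saline, 6.93 to 8.79% in WT-LPS, 10.6 to 19.2% in KO-Saline and 8.15 to 12.6% in KO-LPS.

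**Figure D3:**
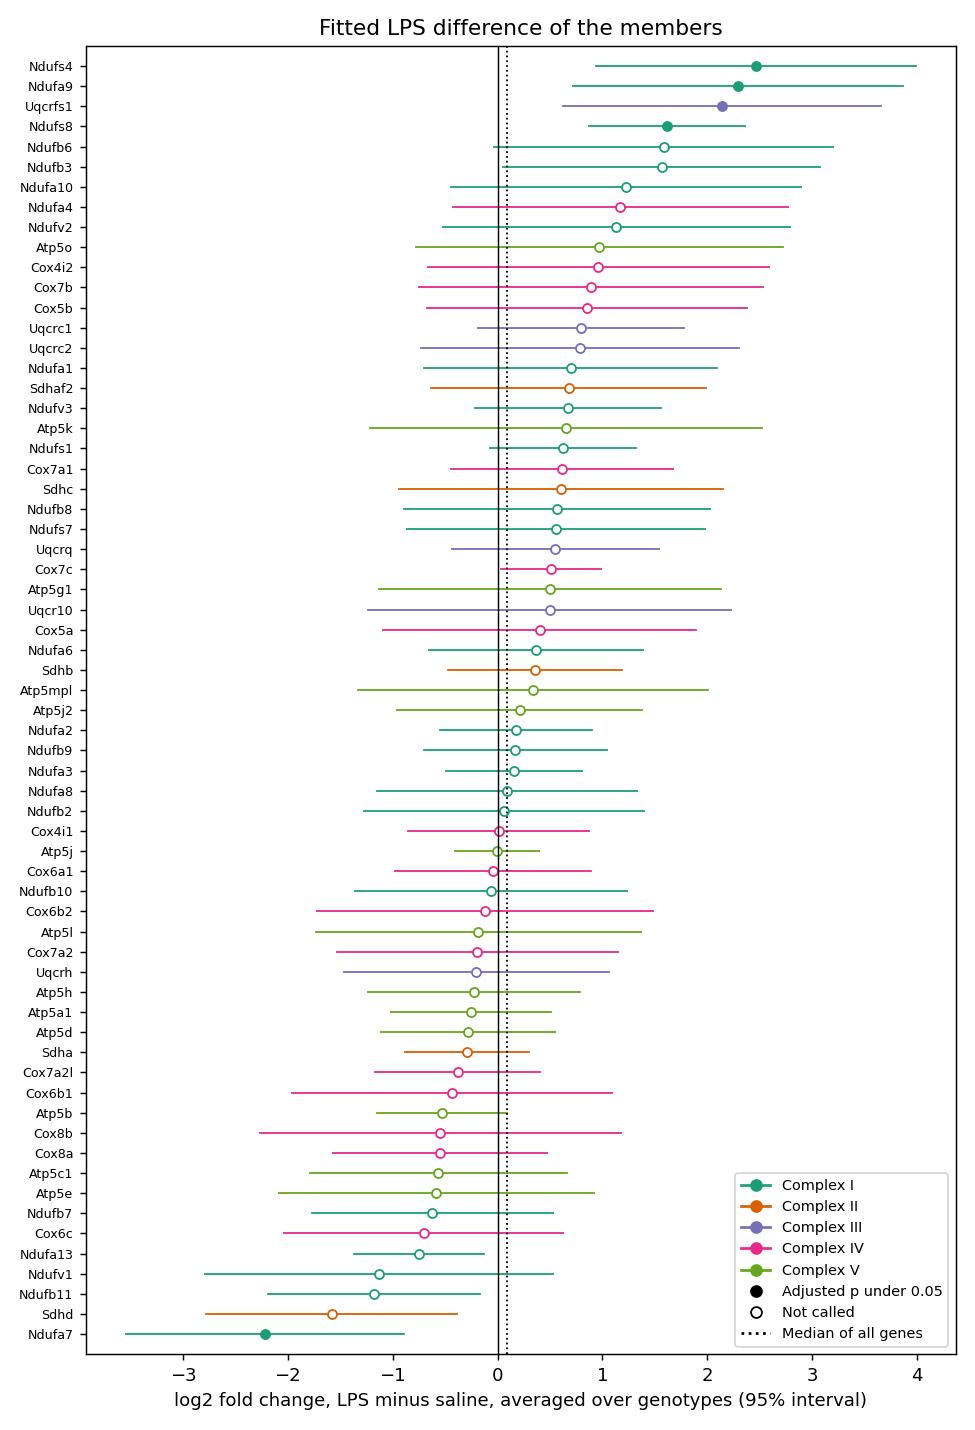
Fitted log2 difference of LPS minus saline, averaged over genotypes, for all members but 1, with 95% intervals; filled points have an adjusted p under 0.05 and the dotted line is the median of all genes, 0.09. The 5 filled points are Ndufs4, Ndufa9, Uqcrfs1 and Ndufs8 above 0 and Ndufa7 below, and for genes with reads in few libraries the fitted value depends on the 0.5 reads added.

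Summed by complex, complex III was the 1 complex whose LPS and saline libraries did not overlap in both genotypes. Its 6 members together had 50.7 to 82.0 CPM in WT-Saline, 84.4 to 119 in WT-LPS, 52.5 to 80.3 in KO-Saline and 85.8 to 141 in KO-LPS. The means were 65.2 ± 15.7 and 102 ± 17.3 CPM (SD, n = 3) in wild type and 65.2 ± 14.0 and 105 ± 31.0 in KO. Without Uqcrc1, its member with the most reads, the sums overlapped in both genotypes (27.5 to 57.7 against 33.2 to 78.1 CPM, and 36.7 to 58.6 against 42.9 to 101). The means without it were still higher with LPS, at 39.7 ± 15.9 and 56.8 ± 22.5 CPM in wild type and 44.7 ± 12.03 and 72.9 ± 29.2 in KO. Complex I summed to 435 to 501 CPM in WT-Saline and 515 to 595 in WT-LPS, and without Ndufs8 to 410 to 482 and 394 to 496. In KO it had 497 to 554 with saline and 464 to 725 with LPS. Complex IV had 281 to 339 CPM in WT-Saline and 342 to 434 in WT-LPS, and without Cox7c 209 to 216 and 186 to 271. Its KO sums, 343 to 438 and 392 to 405, overlapped. Complexes II and V overlapped between LPS and saline in both genotypes. In wild type the mean of complex I went from 461 to 551 CPM with all members and from 438 to 445 without Ndufs8, and that of complex IV from 314 to 386 with all members and from 213 to 219 without Cox7c. The sums were not tested.

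**Figure D4:**
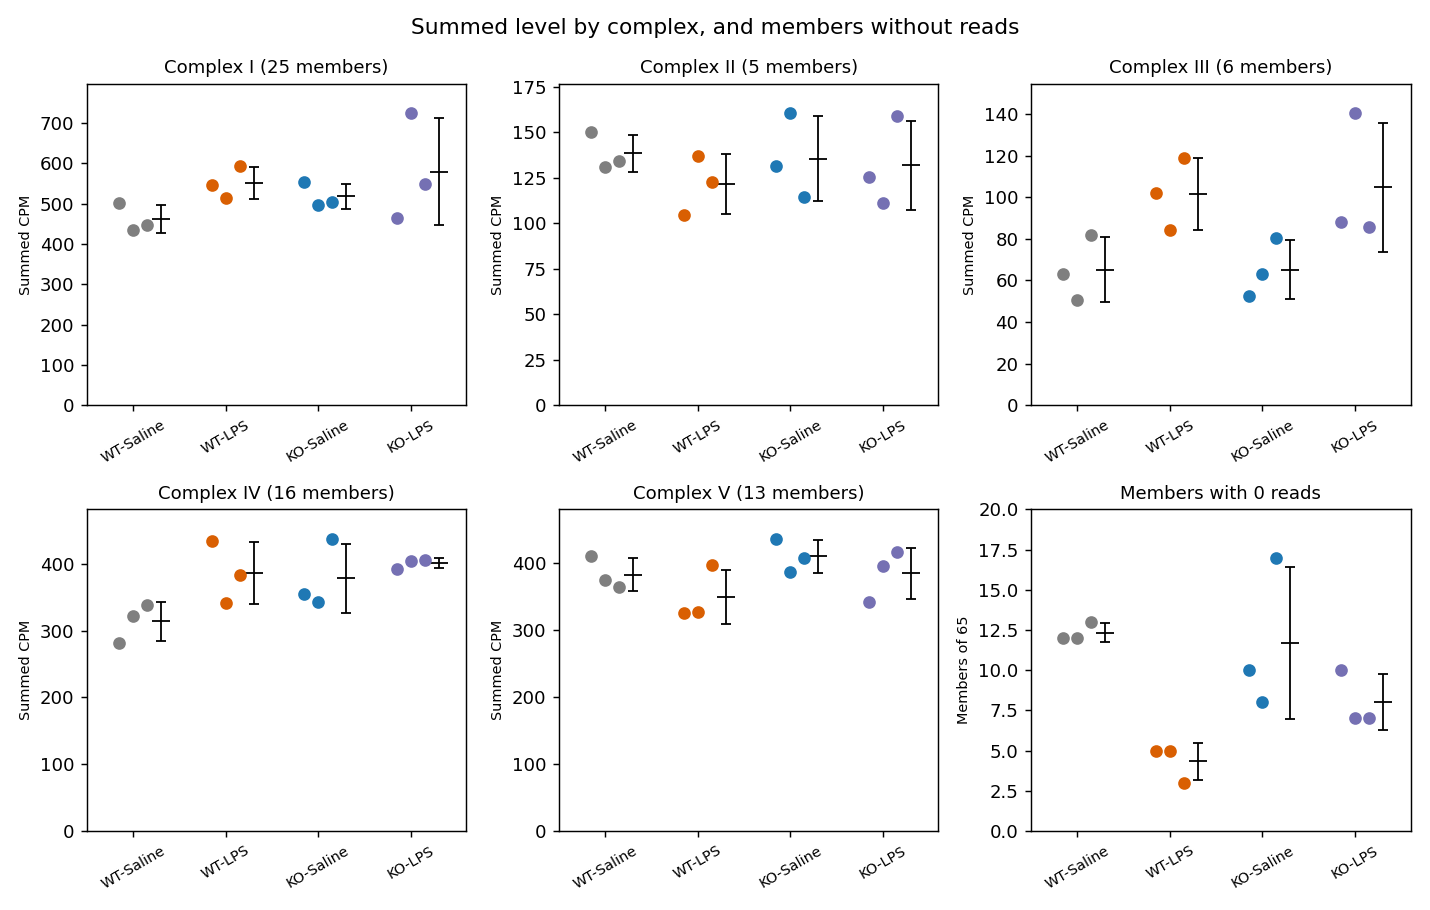
Summed level in CPM by complex and, in the last panel, the number of members without a read; points are libraries in replicate order and bars are the mean ± SD of 3 libraries. Complex III lies at 50.7 to 82.0 CPM in the saline libraries of wild type and at 84.4 to 119 with LPS.

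The KO-labelled libraries were compared with wild type in saline, under LPS and averaged over treatments, and the interaction asked whether the LPS response differed by genotype. Limma called 0 of 65 members in each of these 4 comparisons. Of all genes it called 0.0107% in saline, 0% under LPS, 0.0107% averaged and 0% for the interaction. Unadjusted p-values under 0.05 were found for 1, 4, 2 and 1 members, against 6.86%, 5.02%, 5.65% and 5.97% of all genes, and limma with voom weights called 0 in all 4. The median member difference was 0.19 in saline and 0.02 under LPS, against -0.02 and -0.01 for all genes, and with members at 0 set at their bound the saline median was 0.02. In saline the libraries of 3 members, Cox4i1, Cox8a and Ndufb9, did not overlap with KO higher, against 5.82% of all genes, and of 0 with KO lower (6.28% of all genes). Under LPS these counts were 2 (Ndufa6 and Ndufb7, 4.32% of all genes) and 2 (Ndufa4 and Ndufs7, 5.47%). In saline, Cox8a met at 11 reads and Ndufb9 had 11, 12 and 7 against 11, 14 and 11 reads. Both separated only after scaling for library size.

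The members with the smallest genotype p-values ranged from sparse ones such as Atp5g1 to Ndufs8. In saline Ndufv1 had 8, 1 and 12 reads in wild type and 0, 0 and 1 in KO, a read ratio of 0.0541, 95% by counting 0.00131 to 0.336 (adjusted p 0.663), and the groups overlapped at 1 read. Atp5g1 had none in WT-Saline and 2, 6 and 0 in KO-Saline (adjusted p 0.763). Ndufs8 had 8, 6 and 20 against 14, 14 and 27 reads, with overlap (0.96 ± 0.51, adjusted p 0.779). Ndufa1, an accessory subunit, had 9, 5 and 11 against 9, 1 and 0 (-1.95 ± 0.96, adjusted p 0.735), and Ndufs7, a core iron-sulfur subunit, 2, 5 and 7 against 1, 3 and 0 (-1.59 ± 0.98, adjusted p 0.808). Cox4i1 had 15, 13 and 5 reads in WT-Saline and 21, 18 and 18 in KO-Saline without overlap, and Cox8a 4, 8 and 11 against 11, 17 and 20. In CPM the Cox4i1 means were 24.4 ± 13.8 and 46.0 ± 8.26 (SD, n = 3).

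Under LPS, Atp5c1, the gamma subunit in the central stalk of complex V, had 0, 5 and 18 reads in wild type and 16, 16 and 12 in KO (2.22 ± 0.85, adjusted p 0.937). Ndufa6 had 10, 4 and 4 against 15, 13 and 20 (1.65 ± 0.70, adjusted p 0.949), without overlap. Ndufb7, an accessory subunit of the membrane arm, had 7, 1 and 5 against 12, 12 and 9, also without overlap, and its difference averaged over treatments was 1.42 ± 0.56 (adjusted p 0.827). Ndufb8 had 0, 3 and 2, then 6, 1 and 2 reads in wild type, and 7, 2 and 6, then 4, 4 and 11 in KO, an averaged difference of 1.53 ± 0.71 (adjusted p 0.856). For the interaction, Ndufa4 had the smallest p, with a value of -3.73 ± 1.56 (unadjusted p 0.0234, adjusted p 0.793). Cox5a had 1, 7 and 1, then 11, 6 and 10 reads in wild type, and 2, 8 and 11, then 0, 7 and 7 in KO (-2.86 ± 1.45, adjusted p 0.846). At these depths the interval of a genotype difference was as wide as that of an LPS difference, 1.85 log2 units to either side for the median member, so differences of a few fold were not detectable for most members.

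Genes that build or serve the chain were read beside its subunits. Of 49 listed assembly factors 24 had rows, and 3 rose and 1 fell with LPS averaged over genotypes, 4 of 24 where 16.9% of all genes were called. Bcs1l, which inserts the Rieske protein into complex III, rose by 1.22 ± 0.30 on the log2 scale (adjusted p 0.00467), Coa5 by 0.67 ± 0.17 (adjusted p 0.00537) and Cox15, which makes heme A for complex IV, by 0.82 ± 0.24 (adjusted p 0.0180). Ttc19, a complex III factor, fell by 0.58 ± 0.20 (adjusted p 0.0390). In wild type Bcs1l rose by 1.39 ± 0.43 (adjusted p 0.0309) and Timmdc1, a complex I factor, fell by 1.43 ± 0.37 (adjusted p 0.00982), and in KO Coa5 rose by 0.91 ± 0.24 (adjusted p 0.0276). The median over the 24 was 0.30 averaged, against 0.09 for all genes.

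Of 17 listed regulators of mitochondrial biogenesis 10 had rows. Sirt3, a mitochondrial deacylase, fell by 1.20 ± 0.25 averaged (adjusted p 0.000834), the 1 regulator called there. In wild type Sirt3 fell by 1.29 ± 0.35 (adjusted p 0.0136) and Gabpb1, a subunit of GABP, by 1.04 ± 0.31 (adjusted p 0.0232), while Tfb1m, a mitochondrial rRNA methyltransferase, rose by 1.63 ± 0.51 (adjusted p 0.0327). None was called in KO. These are 1 of 10 averaged and 3 of 10 in wild type, against the 16.9% and 11.7% of all genes given above. The median over the 10 was -0.52 in wild type, -0.11 in KO and -0.42 averaged, against 0.06, 0.09 and 0.09 for all genes. Of 19 listed genes of the citric acid cycle and pyruvate dehydrogenase 15 had rows, and Pdha1, the pyruvate dehydrogenase alpha subunit, fell by 0.59 ± 0.18 averaged (adjusted p 0.0218). The median over the 15 was 0.63 in wild type, -0.06 in KO and 0.25 averaged. Of 25 carriers, ATP export and uncoupling genes 17 had rows, and Coq6, of ubiquinone synthesis, was called lower averaged (adjusted p 0.0236) at a mean of 2.67 reads per library. Of 35 mitochondrial ribosomal protein genes 3 were called higher averaged, against 9.86% of all genes, Mrps25 (0.59 ± 0.14, adjusted p 0.00430), and Mrpl19 and Mrps16 at means of 2.17 and 2.08 reads, and none lower. Cyc1, the cytochrome c1 subunit of complex III, whose symbol is outside the rule, was not called in any comparison. No gene of these lists was called in a genotype comparison.

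With LPS, 9 of 12 neutrophil markers were called higher and 1 lower in wild type (6.72% and 4.96% of all genes). In KO 3 were higher and 1 lower (1.99% and 1.35%), and averaged 9 and 1 (9.86% and 7.03%). Their median log2 difference was 1.53 in wild type, 0.53 in KO and 1.27 averaged. Markers of other blood cells moved with LPS as well, and in bulk RNA fewer cells of a type and less RNA per cell cannot be told apart. Of 8 listed platelet markers 3 had rows, with summed levels of 523 to 779 CPM in WT-Saline, 161 to 255 in WT-LPS, 651 to 837 in KO-Saline and 217 to 496 in KO-LPS. All 3 were called lower averaged over genotypes, against 7.03% of all genes. Of 5 dendritic cell markers 3 had rows, at 104 to 212, 13.0 to 35.6, 58.4 to 95.5 and 17.3 to 98.7 CPM in the same order. Of 10 monocyte and macrophage markers 5 had rows, at 423 to 545, 593 to 683, 441 to 494 and 432 to 646 CPM. Within that sum Ly6c2 rose by 2.43 ± 0.32 on the log2 scale averaged (adjusted p 2.78e-06), while Apoe fell by 2.98 ± 0.52 (adjusted p 0.000121) and Csf1r by 0.73 ± 0.19 (adjusted p 0.00786). The median of the 5 markers was -0.73 averaged and -0.89 in wild type. For B cells 1 of 5 had a row, Cd79a, at 9.68 to 29.6, 101 to 134, 7.30 to 28.9 and 34.7 to 104 CPM. For T and NK cells 2 of 8 had rows (118.6 to 165, 84.4 to 213, 80.3 to 155 and 66.5 to 128 CPM), for erythroid cells 1 of 8 (2.62 to 37.9 CPM over all libraries) and for eosinophils and basophils 1 of 6 (0 to 23.6 CPM). The part of these cells in the values of Ndufs8, Ndufa7 or any other member was not tested.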

How the data were processed

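Values were read from the deposited table of log2 CPM with 0.5 reads added, which the authors made by steps not given in the sources used here beyond the build, mm10, per the submitters' processing notes. Whole reads were recovered from them for 100% of values, within 0.0001, and used for reads, CPM and ratios. The table held no gene under 8 reads in all. Exon lengths and overlaps came from GENCODE on mm10, promoters from RefSeq on GRCm38.p6. All 9374 genes were fitted in limma 3.58.1 under R 4.3.3 with group means over all 12 libraries and a mean-variance trend, two-sided. The fit was checked on simulated data with changes placed only in genes with a mean of at least 10 reads. That check does not cover calls of sparser members, which include Ndufa7, Ndufs4, Uqcrfs1 and Ndufa9. Deviations from group means had correlations of -0.066 to 0.040 for 18 same-numbered pairs of libraries and -0.064 to 0.052 for 36 other pairs. With few reads per gene, counting error can hide shared deviations, so these values do not exclude pairing. No pairing was used in the main fit. Members and lists were chosen with earlier results of these data known. Members were named if called, among the 3 smallest p-values per direction and comparison, among the 3 with the most reads per complex or the 1 highest per length, or isoforms; others named for groups that did not overlap were singled out after their values were seen. The values of 1 member are not reported here, though it stays in counts and sums. Counting intervals and floors cover counting error only.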

Additional observations from a re-analysis of the deposited data

How the results depend on the processing

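Averaged over genotypes the count of 5 called members became 3 with 2 reads added (18.0% of all genes called), 1 among genes with a mean of at least 10 reads (28.1%), and 1 to 6 when 1 library at a time was left out (12.4% to 23.8%). In wild type the count of 1 became 0 without a mean-variance trend (3.87%) and 2 with voom weights (13.4%), and was 1 to 2 with 1 library left out, 2 being without KO-Saline replicate 3 (11.6%). In KO the count of 0 became 1 with voom weights (3.38%) and was 0 to 2 with 1 library left out (0.341% to 11.5%), 2 and 11.5% being without KO-LPS replicate 1. The genotype and interaction counts stayed 0. Under the filter of 10 reads the median difference was -0.043 in wild type and -0.0048 averaged. With the replicate number as a block, 1 member was called in wild type (11.6% of all genes) and 5 averaged (16.7%). The block lost Uqcrfs1 (adjusted p 0.0548) and gained Sdhd (0.0427). Of 43 named results, 34 kept direction and side of the threshold under every setting run, and 0 reversed. Most of the 43 were not called in the main fit, and for those keeping the side means staying uncalled. Among the calls, Ndufs8 in wild type was kept under 19 of 20 settings and Ndufs8 averaged under 19 of 19. Averaged Ndufa7 was kept under 16 of 18, Ndufs4 under 15, Ndufa9 under 7 and Uqcrfs1 under 6. Ndufs8 averaged was called under all 19 alternatives, with an adjusted p of at most 0.0413. Voom weights and median-of-ratios scaling were added after seeing the data, in place of 2 planned count-model fits that were not run because the deposited unit is log2. Depth limits these results: 42 of 65 members had under 10 reads per library on average, and strand use, animals per library and the KO label were not checked by these reads.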
